A study of Homo sapiens with 3 samples.

Results

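The genes described here are 10 regulators of H3K27 methylation and DNA methylation, measured in single prostate cancer cells with and without enzalutamide (ENZ), a drug given against prostate cancer. EZH2, SUZ12 and EED form the core of Polycomb repressive complex 2 (PRC2). DNMT1, UHRF1, HELLS, DNMT3A and DNMT3B place or maintain DNA methylation, and TET2 and TET3 start its removal. They were taken by name, and all 10 were found among the 33423 genes of the 3 count files.

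Single-cell RNA-seq was done by Drop-seq, in which a droplet pairs a cell with a barcoded bead and a unique molecular identifier (UMI) marks each captured mRNA. VCaP parental were VCaP cells kept for 48 h in the vehicle, 0.1% DMSO, and VCaP–ENZ48 were VCaP cells after 48 h in 10 µM ENZ. LNCaP–ENZ168 were LNCaP cells after 168 h in 10 µM ENZ, and an LNCaP library without ENZ was not analysed here. With 1 library in each group there was no replicate check and no test, and the 95% intervals given throughout cover counting error only.

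PRC2 trimethylates lysine 27 of histone H3 at silenced genes. EZH2 carries the methyltransferase activity, SUZ12 holds the complex together, and EED binds the finished mark and stimulates the enzyme. After DNA replication, UHRF1 recognises the half-methylated CpG sites left at the fork and recruits DNMT1, which copies the methylation onto the new strand, while the remodeller HELLS opens nucleosomal DNA for this step. DNMT3A and DNMT3B can methylate unmethylated DNA, and the TET enzymes oxidise 5-methylcytosine, the first step of its removal. EZH2 is known in prostate cancer for high expression in advanced disease.

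After filtering, the libraries held 944 to 997 cells, with a median of 17817 UMIs per cell in VCaP parental, 11224 in VCaP–ENZ48 and 5389 in LNCaP–ENZ168. No cell barcode was shared between libraries. Barcodes whose last letter was N made up 86.2%, 86.6% and 21.7% of cells in the same order. The libraries fitted their labels: KRT18 and HOXB13 were detected in over 86% of cells in each, ERG, which VCaP expresses from a fusion gene, had 2052 and 816 UMIs in the VCaP libraries and 0 in LNCaP–ENZ168, and PTPRC, CD68, PECAM1, VWF, COL1A1 and DCN, markers of immune, endothelial and stromal cells, had at most 13 UMIs in any library. The summed level of 95 S and G2M phase genes, the lists of Seurat without UHRF1 and HELLS, was 14930 counts per 1000000 UMIs (CPM) in VCaP parental, 2829 in VCaP–ENZ48 and 6304 in LNCaP–ENZ168, and it moves with several results that follow.

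The promoters were searched for the E2F motif, because E2F factors switch on many genes of DNA replication and the members are set beside such genes in what follows. The search used the 300-base RefSeq windows (GRCh38.p14) around each annotated start and the letters TTTGGCGC, TTTCCCGC, TTTCGCGC and TTTGCCGC on both strands. A match lay in windows of 5 of the 10 genes. Counted by window, it lay in 6 of their 20, against 3.32% of all 35116 windows. The matches were in EZH2, SUZ12, DNMT1, UHRF1 and HELLS. They are printed 5′ to 3′ on the strand of the gene, with the motif in capitals.
EZH2, just after the start, minus strand, chr7:148884273-148884300: ggctgccgcgTTTGGCGCtcggtccggt
HELLS, 76 bases before the start, plus strand, chr10:94545702-94545729: accgcaagctGCGCCAAAtctcgcgcag
HELLS, 8 bases before the start, plus strand, chr10:94545770-94545797: atgacaggatTTTCCCGCgaaggagaag
UHRF1, 14 bases before the first start, plus strand, chr19:4909477-4909504: ccgagttttcGCGGGAAAaaaatcagag
UHRF1, 160 bases before the second start, plus strand, chr19:4909974-4910001: ccgagcccgaTTTCGCGCgccctgagtt
SUZ12, 189 bases before the start, plus strand, chr17:31936808-31936835: gacccctaatTTTCCCGCgaattcagtt
DNMT1, across the start, minus strand, chr19:10194938-10194965: atcggtttccGCGCGAAAagccggggcg

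For SUZ12 and for the second start of UHRF1 the 250 bases before the start carry no annotated exon, and they are given whole as examples of these CpG-rich promoters, with the motif in capitals.
SUZ12, plus strand, chr17:31936757-31937006: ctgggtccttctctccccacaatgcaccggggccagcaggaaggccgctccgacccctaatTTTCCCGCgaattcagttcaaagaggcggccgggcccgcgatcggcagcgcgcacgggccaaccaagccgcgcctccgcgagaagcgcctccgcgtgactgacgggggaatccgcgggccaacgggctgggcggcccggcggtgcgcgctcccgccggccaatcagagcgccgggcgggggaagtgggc
UHRF1, plus strand, chr19:4909894-4910143: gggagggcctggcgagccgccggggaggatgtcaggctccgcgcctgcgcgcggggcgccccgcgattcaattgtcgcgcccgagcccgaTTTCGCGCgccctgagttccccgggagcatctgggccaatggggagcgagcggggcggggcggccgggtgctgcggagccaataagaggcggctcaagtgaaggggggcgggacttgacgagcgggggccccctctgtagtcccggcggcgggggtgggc

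The windows of the 10 genes held between 3 CpG sites, in DNMT3B, and 46, against a median of 14 over all windows. No E2F match was found in the windows of EED, DNMT3A, DNMT3B, TET2 and TET3. The CCAAT box was found in 8 of the 20 windows of these genes, against 34.6% of all windows, and the CHR motif (TTTGAA or TTCGAA) in 3 of the 20, against 16.4%. EZH2 held 4 CCAAT matches in 1 window. None of these matches overlapped an E2F match. A match is a description of the letters in these windows only, and several genes had more than 1 window. Every E2F string searched holds a CpG, and the windows set beside these genes were not matched for CpG content.

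In VCaP cells, 48 h of ENZ went with lower levels of PRC2's catalytic subunit and of the maintenance methylation genes. EZH2 was 5.91-fold lower, HELLS 4.81-fold, UHRF1 3.22-fold and DNMT1 3.09-fold, while TET2 was nearly level. Of the 10 genes, 4 were at least 2-fold lower and 0 at least 2-fold higher. Among the 7729 genes whose mean over the pair was 10 CPM or more, 6.77% were at least 2-fold lower and 8.19% at least 2-fold higher. Of the 6 members that passed this minimum, 3 were at least 2-fold lower, and UHRF1, DNMT3B, TET2 and TET3 were under it. All 10 log2 ratios were below 0, and 8 intervals lay below 0. The median log2 ratio over all genes tested was -0.07. The levels below are CPM of the UMIs summed over the cells of a library, and ratios are log2 ratios of CPM + 1, whose intervals leave the added 1 out.

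**Figure D1:**
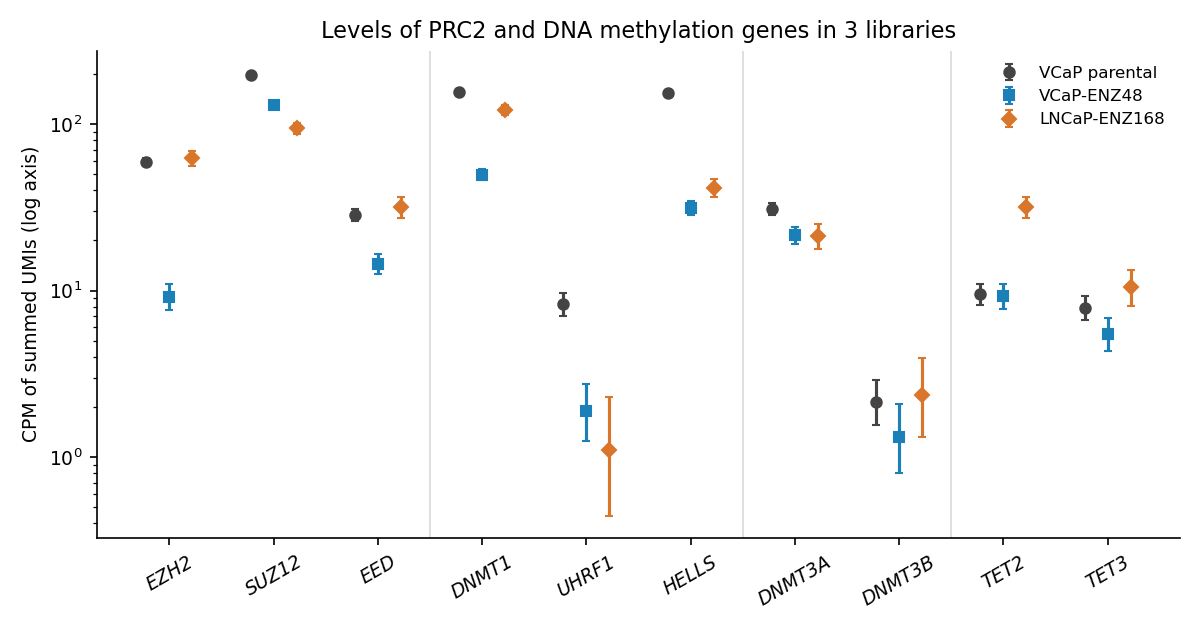
CPM of summed UMIs (log axis) of the 10 genes in the 3 libraries, with points for the level and bars for the 95% Poisson interval; vertical lines part PRC2, maintenance methylation, other DNA methyltransferases and TET genes. VCaP–ENZ48 lies below VCaP parental for EZH2, DNMT1, UHRF1 and HELLS, and TET2 is highest in LNCaP–ENZ168.

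EZH2 (chromosome 7, 148807257 to 148884321) had 1153 UMIs in VCaP parental, 131 in VCaP–ENZ48 and 392 in LNCaP–ENZ168. These were levels of 59.1 CPM (55.7 to 62.6), 9.16 CPM (7.66 to 10.9) and 62.1 CPM (56.1 to 68.5). VCaP–ENZ48 was therefore low, and by CPM the intervals of VCaP parental and LNCaP–ENZ168 overlapped. That overlap depended on scaling. With TMM factors of edgeR, another way to scale libraries, those levels were 76.4 and 45.4 CPM. The log2 ratio of VCaP–ENZ48 over VCaP parental was -2.56 (-2.96 to -2.43), and 1.33% of all genes tested had a lower ratio. EZH2 was detected in 51.8% of VCaP parental cells, 8.98% of VCaP–ENZ48 cells and 26.5% of LNCaP–ENZ168 cells. When every cell was reduced to 2000 UMIs, without 30 VCaP–ENZ48 cells and 1 LNCaP–ENZ168 cell that were shallower, the shares were 10.3% (8.51 to 12.4), 1.2% (0.600 to 2.14) and 10.3% (8.42 to 12.4). In the thinned cells, too, VCaP–ENZ48 was low and the intervals of the other libraries overlapped. Thinning to an equal number of UMIs scales cells as CPM does, so it is no separate check of that overlap. No cell type lacking these genes was in the libraries, so background from free RNA could not be measured for any of the shares.

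SUZ12 (chromosome 17, 31937007 to 32001038), the scaffold of PRC2, was at 195.9 CPM (189.8 to 202.3) in VCaP parental, 130.2 CPM (124.4 to 136.2) in VCaP–ENZ48 and 93.9 CPM (86.5 to 101.8) in LNCaP–ENZ168. The 3 intervals did not overlap, and the log2 ratio between the VCaP libraries was -0.59 (-0.67 to -0.51). Thinned shares of cells with SUZ12 were 29.6%, 19.4% and 16.4%, and the intervals of the last pair, 16.9 to 22.1% and 14.1 to 19.0%, overlapped. EED (chromosome 11, 86201212 to 86278813), which binds the mark, was at 28.4 CPM (26.1 to 30.9), 14.5 CPM (12.6 to 16.6) and 31.5 CPM (27.3 to 36.2) in the same order. VCaP–ENZ48 was again low, with a log2 ratio of -0.93 (-1.21 to -0.74), and the other pair overlapped by CPM. With TMM factors EED was at 36.7 CPM in VCaP parental and 23.1 CPM in LNCaP–ENZ168.

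The PRC2 subunits had unequal ratios, so their proportions differed between libraries. EZH2 made up 20.9% of the UMIs of EZH2, SUZ12 and EED in VCaP parental (19.8 to 21.9), 5.96% in VCaP–ENZ48 (5.00 to 7.03) and 33.1% in LNCaP–ENZ168 (30.4 to 35.9). SUZ12 made up 69.1%, 84.6% and 50.1%. These shares do not depend on how the libraries are scaled, and they are read between libraries and not between genes, since capture differs from gene to gene.

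EZH1, the paralog that can replace EZH2 in the complex, was at 6.97 CPM (5.85 to 8.24) in VCaP parental, 8.67 CPM (7.21 to 10.3) in VCaP–ENZ48 and 20.1 CPM (16.8 to 23.9) in LNCaP–ENZ168. The VCaP libraries overlapped for EZH1, and LNCaP–ENZ168 was high. EZH2 accounted for 89.5% (87.6 to 91.1) of EZH1 and EZH2 UMIs in VCaP parental, 51.4% (45.1 to 57.7) in VCaP–ENZ48 and 75.5% (71.6 to 79.2) in LNCaP–ENZ168.

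DNMT1 (chromosome 19, 10133342 to 10231286), the maintenance methyltransferase, had 3033, 709 and 768 UMIs in VCaP parental, VCaP–ENZ48 and LNCaP–ENZ168. The levels were 155.4 CPM (149.9 to 161), 49.6 CPM (46.0 to 53.4) and 121.6 CPM (113.2 to 130.6), with no overlap. VCaP–ENZ48 was the low library, with a log2 ratio of -1.63 (-1.77 to -1.53) over VCaP parental. Thinned detection was 23.2% (20.6 to 25.9), 9.27% (7.47 to 11.3) and 19.8% (17.3 to 22.5).

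HELLS (chromosome 10, 94545329 to 94613905) was at 154.1 CPM (148.7 to 159.7) in VCaP parental, 31.3 CPM (28.4 to 34.3) in VCaP–ENZ48 and 41.5 CPM (36.6 to 46.8) in LNCaP–ENZ168. Here VCaP parental stood high, with a log2 ratio of -2.27 (-2.45 to -2.16) for VCaP–ENZ48 over it, and both ENZ libraries were low. Thinned detection was 21.8% in VCaP parental, 5.45% (4.07 to 7.13) in VCaP–ENZ48 and 6.68% (5.17 to 8.47) in LNCaP–ENZ168, so the last pair overlapped. A single VCaP–ENZ48 barcode with 117469 UMIs, 10.5 times the median depth, held 47 of the 447 HELLS UMIs and 42 of the 709 DNMT1 UMIs of that library. Without it HELLS was at 28.2 CPM and DNMT1 at 47.0 CPM there.

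UHRF1 (chromosome 19, 4903080 to 4962154), which reads half-methylated CpG sites, was sparse. It had 162 UMIs in VCaP parental, 27 in VCaP–ENZ48 and 7 in LNCaP–ENZ168, or 8.30 CPM (7.07 to 9.68), 1.89 CPM (1.24 to 2.75) and 1.11 CPM (0.446 to 2.28). VCaP parental was high and the ENZ libraries overlapped. The log2 ratio between the VCaP libraries was -1.69 (-2.78 to -1.54), and with 5 CPM added in place of 1 it was -0.95, under 2-fold. Its paralog UHRF2 was at 5.69 CPM (4.68 to 6.85), 7.69 CPM (6.32 to 9.27) and 12.5 CPM (9.91 to 15.6). UHRF1 made up 59.3% (53.3 to 65.2) of the UMIs of both in VCaP parental, 19.7% (13.4 to 27.4) in VCaP–ENZ48 and 8.14% (3.33 to 16.1) in LNCaP–ENZ168. The intervals of this share overlapped between the ENZ libraries.

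**Figure D2:**
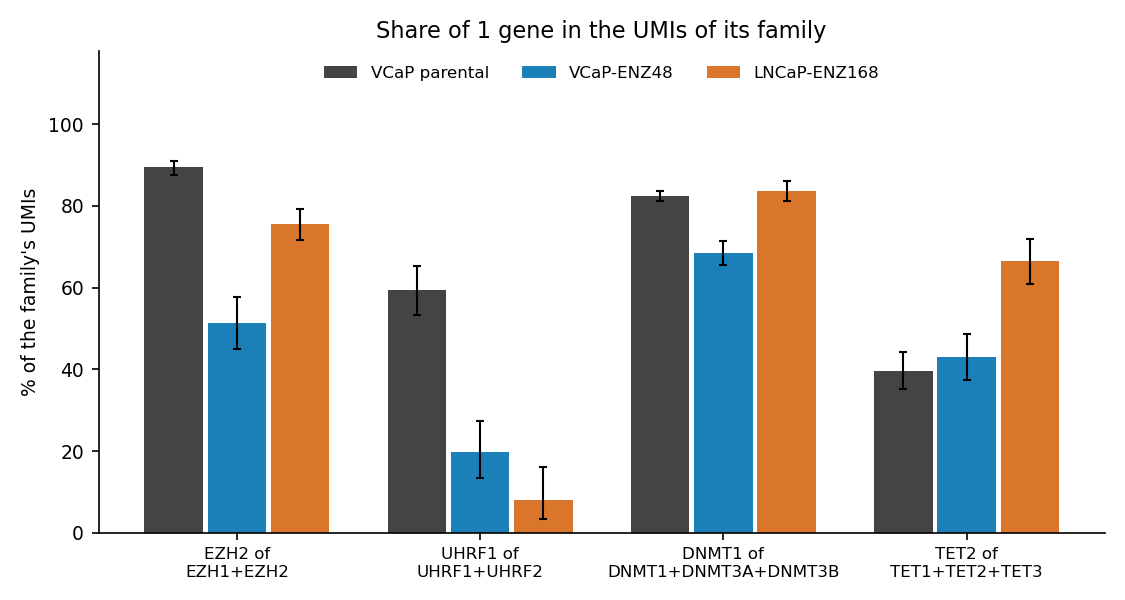
Share (%) of a gene in the summed UMIs of its family in the 3 libraries, as bars from 0 with exact 95% binomial intervals. EZH2 is 89.5% of the EZH pair in VCaP parental and 51.4% in VCaP–ENZ48. UHRF1 is highest in VCaP parental, with overlapping intervals in the ENZ libraries, and TET2 is highest in LNCaP–ENZ168 at 66.6%.

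DNMT3A (chromosome 2, 25227855 to 25342590), which methylates unmethylated DNA, was at 31.0 CPM (28.6 to 33.6) in VCaP parental, 21.5 CPM (19.1 to 24.0) in VCaP–ENZ48 and 21.2 CPM (17.8 to 25.1) in LNCaP–ENZ168. The ENZ libraries overlapped and VCaP parental was higher, with a log2 ratio of -0.51 (-0.73 to -0.33). DNMT3B (chromosome 20, 32762385 to 32809359) was near the limit of detection, with 42, 19 and 15 UMIs and levels of 2.15, 1.33 and 2.38 CPM. All 3 intervals overlapped, so no difference in DNMT3B was detectable at this depth. DNMT1 was 82.4% (81.2 to 83.6) of the UMIs of the 3 DNA methyltransferases in VCaP parental, 68.5% (65.6 to 71.3) in VCaP–ENZ48 and 83.8% (81.2 to 86.1) in LNCaP–ENZ168.

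TET2 (chromosome 4, 105145875 to 105279816) was at 9.48 CPM (8.16 to 10.9) in VCaP parental, 9.23 CPM (7.72 to 10.9) in VCaP–ENZ48 and 31.5 CPM (27.3 to 36.2) in LNCaP–ENZ168. The VCaP libraries overlapped, with a log2 ratio of -0.03 (-0.37 to 0.29), and LNCaP–ENZ168 was high. Thinned shares of cells with TET2 were 1.5%, 3.38% and 5.83%, and no order is read between the VCaP libraries, where the share goes against the level. TET3 (chromosome 2, 73984910 to 74108176) was at 7.89 CPM (6.69 to 9.24), 5.45 CPM (4.31 to 6.81) and 10.5 CPM (8.09 to 13.3). Its log2 ratio between the VCaP libraries was -0.46 (-0.94 to -0.13), and its levels in VCaP parental and LNCaP–ENZ168 overlapped. TET1 was at 6.56, 6.78 and 5.39 CPM with overlapping intervals. TET2 made up 39.6% (35.2 to 44.2), 43.0% (37.4 to 48.7) and 66.6% (60.9 to 71.9) of TET UMIs.

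**Figure D3:**
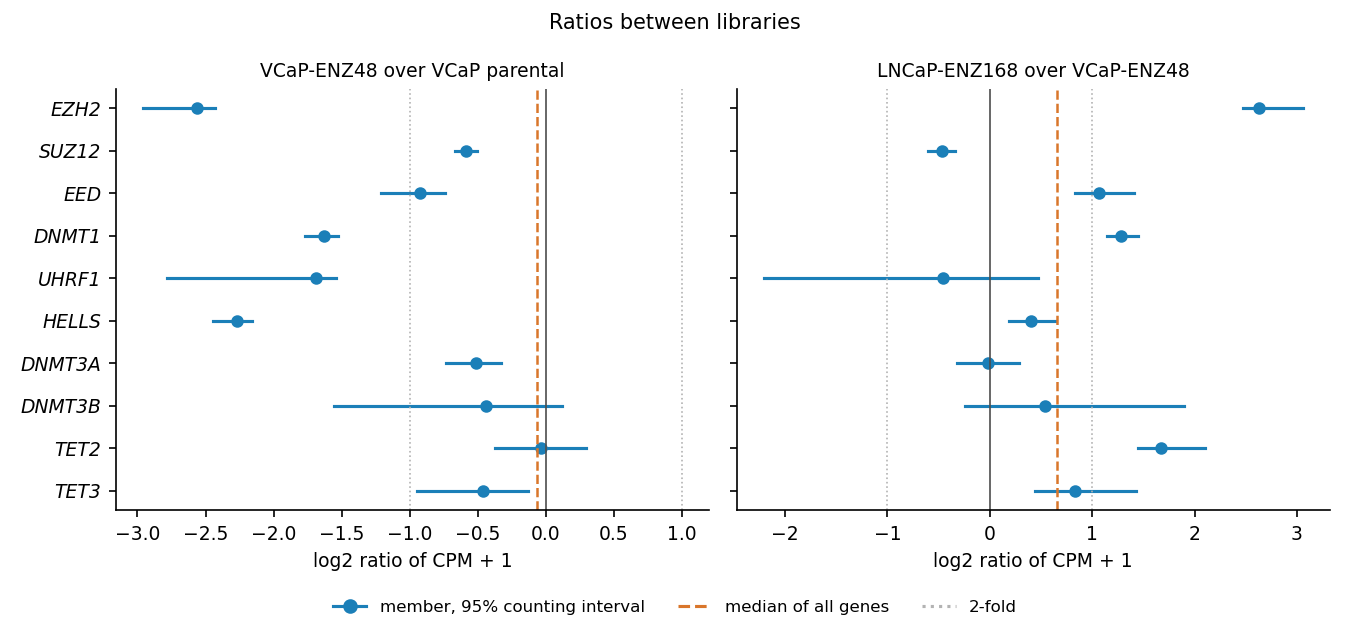
Log2 ratios of CPM + 1 of the 10 genes for VCaP–ENZ48 over VCaP parental (left) and LNCaP–ENZ168 over VCaP–ENZ48 (right). Points are ratios, bars 95% counting intervals, the dashed line the median of all genes tested (-0.07 and 0.66) and dotted lines mark 2-fold; EZH2 lies farthest from 0 in both panels, at -2.56 and 2.63.

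The next comparison sets LNCaP–ENZ168 against VCaP–ENZ48, both under ENZ. Cell line, exposure time and medium (RPMI for LNCaP, DMEM for VCaP) differ together here and cannot be told apart, and VCaP–ENZ48 also served in the comparison above. EZH2, TET2, DNMT1 and EED were at least 2-fold higher in LNCaP–ENZ168 and 0 of the 10 genes at least 2-fold lower. Among the 8854 genes whose mean was 10 CPM or more, 35.5% were at least 2-fold higher and 11.1% at least 2-fold lower, and the median log2 ratio was 0.66. Of the 7 members that passed the minimum, 4 were at least 2-fold higher, and DNMT3B, UHRF1 and TET3 were under it.

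The log2 ratio of EZH2 was 2.63 (2.47 to 3.06), which is 1.98 above the median of all genes, and 95.9% of genes tested had a lower ratio. TET2 had 1.67 (1.45 to 2.10), which is 1.01 above that median. DNMT1 had 1.28 (1.15 to 1.44) and EED 1.07 (0.83 to 1.41), or 0.62 and 0.42 above it. SUZ12 went the other way, at -0.47 (-0.61 to -0.34). HELLS had 0.40 (0.18 to 0.63), below the median of all genes, and its sign depended on scaling: with TMM factors it was -0.12, and with median-of-ratios factors -0.08. TET3 had 0.83 (0.44 to 1.43), and the intervals of DNMT3A, DNMT3B and UHRF1 held 0.

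Scaling bears on the counts in this pair. With TMM factors of edgeR, 17.3% of all genes were at least 2-fold higher and 17.2% lower, the median was 0.10, and 2 of the 10 genes, EZH2 and TET2, were at least 2-fold higher. In the VCaP pair TMM gave 12.6% of genes lower and 5.75% higher with a median of -0.34, and 5 of the 10 genes, with EED added, were at least 2-fold lower. Barcodes ending in N were 86.6% of VCaP–ENZ48 and 21.7% of LNCaP–ENZ168 cells. Among these cells alone, LNCaP–ENZ168 stood at a log2 ratio to VCaP–ENZ48 of -0.91 for DNMT3A, -0.45 for DNMT3B and 0.81 for HELLS. These values rest on 205 LNCaP–ENZ168 cells and are given without intervals. DNMT3A was at 10.7 CPM and DNMT3B at 0.824 CPM in those 205 cells, so few UMIs carry both ratios.

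The proliferation genes moved in the direction of EZH2 and DNMT1 in both pairs, but not with every member. In LNCaP–ENZ168 over VCaP–ENZ48, SUZ12 went the other way, at -0.47, and DNMT3A was nearly level, at -0.02. TET2 was nearly level in the VCaP pair, at -0.03. In the VCaP pair, 80 of the 91 S and G2M genes tested were at least 2-fold lower, with a median log2 ratio of -2.33. Over all genes tested in that pair, 6.77% were at least 2-fold lower. The replication clamp PCNA went from 385.8 to 93.1 CPM and the proliferation antigen gene MKI67 from 207.5 to 23.4 CPM. In LNCaP–ENZ168 over VCaP–ENZ48 the median of the list was 1.2, against 0.66 over all genes tested. Of the 86 list genes tested, 55 were at least 2-fold higher, against 35.5% of all genes. PCNA was at 225.2 CPM and MKI67 at 85.1 CPM in LNCaP–ENZ168. The proliferation gene TOP2A had a log2 ratio of 0.62, below the median of all genes. How much of the difference in a member goes with the mix of cycling cells was therefore described by comparing cells of like S and G2M content.

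Cells thinned to 2000 UMIs were put into 3 ranges by their S and G2M UMIs, with bounds at the tertiles of VCaP parental. The lowest range held cells with at most 11 such UMIs and the highest those with more than 36. The lowest range held 351 VCaP parental cells (35.2%), 866 VCaP–ENZ48 cells (94.4%) and 717 LNCaP–ENZ168 cells (76.0%). The highest held 328, 12 and 76 cells. These are ranges of a score and not cell types, and 38, 12 and 55 cells of the lowest range lay within 1 UMI of the bound.

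Within VCaP parental, most of the members depended on the range. EZH2 was at 14.4 CPM (11.6 to 17.7) in the lowest range and 100.5 CPM (93.1 to 108.3) in the highest, a log2 ratio of 2.72 (2.49 to 3.13). HELLS went from 40.6 to 192.7 CPM, a log2 ratio of 2.22 (2.05 to 2.45). UHRF1 had 1.79 (1.34 to 3.37), DNMT1 1.26 (1.11 to 1.42), SUZ12 0.92 (0.80 to 1.04), DNMT3B 0.91 (0.19 to 2.51) and EED 0.70 (0.40 to 1.06). The DNMT3B ratio rests on 26 UMIs in the highest and 10 in the lowest range. DNMT3B was at 1.57 CPM in the lowest range and 0.94 CPM in the middle range, where it had 6 UMIs. For DNMT3A, TET2 and TET3 the intervals held 0, and DNMT3A was at 34.6 CPM in the lowest range and 29.7 CPM in the highest. HELLS, DNMT1 and UHRF1 were higher in the middle range, at 227.2, 209.9 and 14.8 CPM, than in the highest, at 192.7, 180.3 and 8.41 CPM. With ranges made from the G2M genes alone, the log2 ratios of the highest over the lowest range were smaller, at 2.11 for EZH2, 1.16 for HELLS, 0.77 for DNMT1, 0.68 for SUZ12 and 0.40 for UHRF1.

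**Figure D4:**
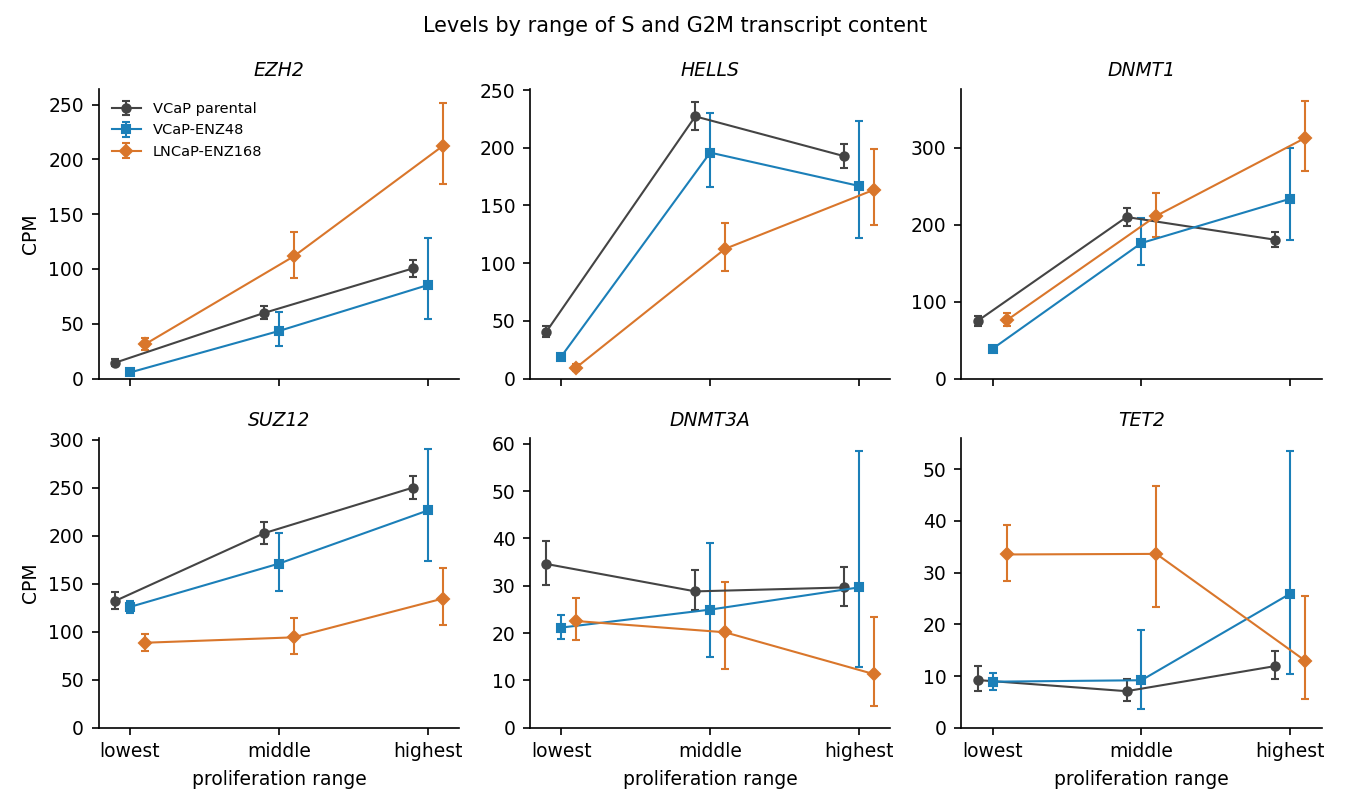
CPM of 6 of the genes (linear axes from 0) in cells of the lowest, middle and highest range of S and G2M content, by library, with 95% Poisson intervals. EZH2 is at 14.4 CPM in the lowest and 100.5 CPM in the highest range of VCaP parental, DNMT3A at 34.6 and 29.7 CPM, and in the lowest range EZH2, HELLS and DNMT1 are lower in VCaP–ENZ48 than in VCaP parental.

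The highest range of VCaP parental was then divided at the median S share of its S and G2M UMIs, giving 164 S-rich and 164 G2M-rich cells. UHRF1 was at 14.9 CPM in S-rich and 2.05 CPM in G2M-rich cells, a log2 ratio of 2.38 (1.72 to 4.25), with 50 and 7 UMIs. HELLS had 2.07 (1.89 to 2.29), DNMT1 1.40 (1.23 to 1.60) and EED 1.08 (0.70 to 1.55). EZH2 was at 117.1 and 84.1 CPM, a log2 ratio of 0.47 (0.25 to 0.70), and SUZ12 had 0.54 (0.40 to 0.68). The intervals of DNMT3A, DNMT3B, TET2 and TET3 held 0. The interval of EZH2 lay below those of the maintenance genes UHRF1, HELLS and DNMT1, and the intervals of DNMT1 and EED overlapped. PCNA, itself among the S genes that made the division, had 2.37 (2.24 to 2.52), and MKI67, among the G2M genes, -0.69 (-0.80 to -0.59).

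**Figure D5:**
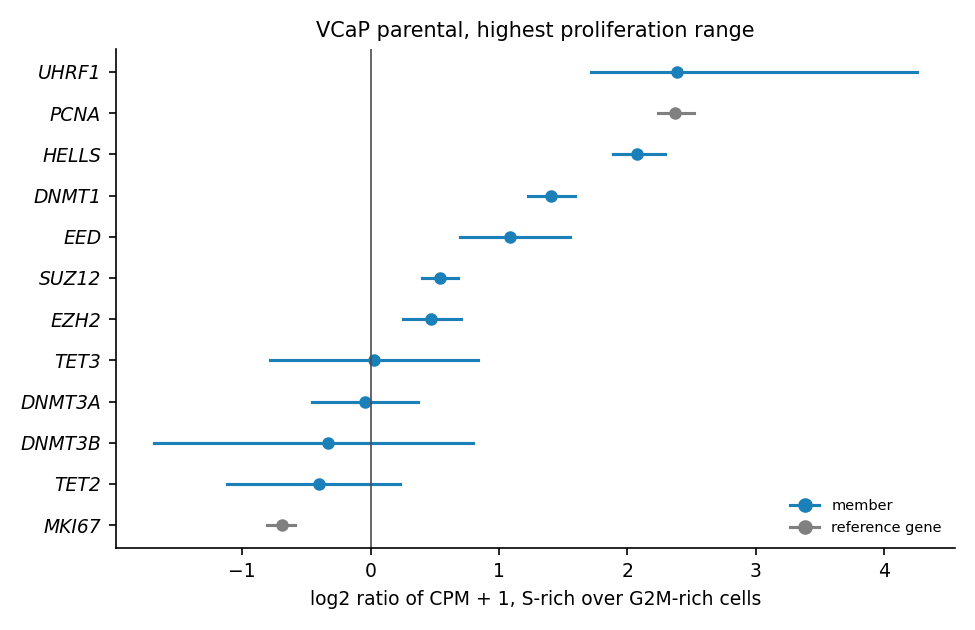
Log2 ratio of CPM + 1 in S-rich over G2M-rich cells of the highest range of VCaP parental, 164 cells each, with 95% counting intervals. UHRF1, HELLS, DNMT1 and EED lie above 1, EZH2 and SUZ12 near 0.5, and the intervals of DNMT3A, DNMT3B, TET2 and TET3 hold 0; PCNA and MKI67 belong to the lists that made the division.

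Correlations between cells gave a similar description. Over the 997 VCaP parental cells and 9075 genes, with counts per 10000 on a log scale, the genes most like HELLS were PCNA (Pearson r = 0.74), ATAD2 (0.74) and CENPU (0.74). DNMT1 was closest to PCNA (0.61), the replicative helicase gene MCM4 (0.60) and CENPU (0.58). UHRF1 was closest to MCM4 (0.39), PCNA (0.36) and MCM6 (0.35), and EED to DUT (0.26), PCNA (0.24) and TK1 (0.24). EZH2 had other neighbours, the histone gene H4C3 (0.52), the chromatin protein gene HMGB2 (0.50) and the mitotic kinase gene CDK1 (0.49). SUZ12 was closest to CENPU (0.39), ATAD2 (0.38) and USP1 (0.38). No gene reached 0.2 for DNMT3A, DNMT3B, TET2 or TET3. Among pairs of members, DNMT1 with HELLS had the highest r, 0.55, and EZH2 with HELLS had 0.39. These cells share 1 library and its depth, and the values are descriptions.

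Between the VCaP libraries, the ratios within the lowest range were smaller than over all cells for the members that followed the ranges in VCaP parental. EZH2 was at 14.4 CPM in VCaP parental and 5.52 CPM (4.33 to 6.94) in VCaP–ENZ48, a log2 ratio of -1.24 (-1.85 to -0.93). HELLS was at 40.6 and 19.1 CPM, with -1.05 (-1.35 to -0.83), and DNMT1 at 74.9 and 38.6 CPM, with -0.94 (-1.14 to -0.77). SUZ12 was at 132 and 125.8 CPM, with -0.07 (-0.19 to 0.05), and EED had -0.52 (-0.89 to -0.20). Some of these ratios moved out of their intervals under other settings. With ranges from G2M genes alone, HELLS had -1.81, DNMT1 -1.29 and SUZ12 -0.21. HELLS had -0.67 with quartile ranges. Among barcodes not ending in N, SUZ12 had 0.16 and EED -0.996. DNMT3A, which did not follow the ranges, had -0.68 (-0.97 to -0.45). TET2 had -0.05 (-0.51 to 0.43), and the intervals of TET3, UHRF1 and DNMT3B held 0. The median over all genes was -0.08. Within this range the S and G2M genes still summed to 3451 CPM in VCaP parental and 1852 CPM in VCaP–ENZ48, and the part of that gap in these ratios was not tested.

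The middle range held 318 VCaP parental cells and 39 VCaP–ENZ48 cells. EZH2 had a log2 ratio of -0.46 (-1.02 to 0.05) there, DNMT1 -0.25 (-0.52 to 0.00) and HELLS -0.21 (-0.47 to 0.03). The deepest VCaP–ENZ48 barcode, described above, was 1 of the 39. Without it, a choice made after seeing the data, EZH2 had -0.61 (-1.27 to -0.04), DNMT1 -0.55 (-0.87 to -0.25) and HELLS -0.52 (-0.82 to -0.23), so that all 3 intervals lay below 0. In the highest range, with 12 VCaP–ENZ48 cells, all 10 intervals held 0. EZH2 was at 85.3 CPM (54.1 to 128) in those 12 cells, against 100.5 CPM in VCaP parental.

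In LNCaP–ENZ168, EZH2 by CPM was higher than in either VCaP library within each range. The size of its gap to VCaP parental depends on scaling, and the levels in the ranges are CPM without other factors. Over all cells, TMM factors put EZH2 at 76.4 CPM in VCaP parental and 45.4 CPM in LNCaP–ENZ168. In LNCaP–ENZ168 EZH2 was at 31.2 CPM (26.3 to 36.7) in the lowest, 111.5 CPM (92.1 to 133.7) in the middle and 212.2 CPM (177.4 to 251.8) in the highest range. Against VCaP–ENZ48 the log2 ratios were 2.3 (2.08 to 2.92), 1.34 (0.79 to 1.97) and 1.31 (0.67 to 2.02). The medians over all genes in these ranges were 0.64, 0.54 and 0.50. HELLS, in contrast, was at 9.46 CPM (6.87 to 12.7) in the lowest range of LNCaP–ENZ168, below VCaP–ENZ48 with a log2 ratio of -0.94 (-1.51 to -0.54), and reached 163.6 CPM in the highest. UHRF1 had 0 UMIs in the 717 cells of the lowest range, which allows up to 0.793 CPM. TET2 was at 33.5 CPM (28.5 to 39.2) in the lowest and 13.0 CPM (5.60 to 25.5) in the highest range, a log2 ratio of -1.31 (-2.61 to -0.36) that rests on 8 UMIs in 76 cells. DNMT1 went from 76.3 to 312.7 CPM, with 2.02 (1.78 to 2.29), and EED from 24.5 to 72.9 CPM, with 1.54 (1.04 to 2.08).

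Other Polycomb and DNA methylation genes were read from a list of 58, of which 54 were found. In the VCaP pair 30 had a mean of at least 10 CPM, 3 were at least 2-fold lower and 1 at least 2-fold higher, and their median log2 ratio was -0.12. The 3 lower genes were PHF19, CDCA7 and RBBP7. PHF19, a PRC2 accessory protein, went from 39.3 CPM (36.5 to 42.1) to 7.97 CPM (6.58 to 9.58) and was at 3.17 CPM in LNCaP–ENZ168. CDCA7, the partner of HELLS, went from 26.8 to 8.95 CPM, with 11.3 CPM in LNCaP–ENZ168. The histone-binding PRC2 subunit RBBP7 was at 255.9 CPM in VCaP parental, 119.8 CPM in VCaP–ENZ48 and 255 CPM in LNCaP–ENZ168, while its paralog RBBP4 was at 84.9, 77.2 and 71.0 CPM. RING1, an E3 ligase of PRC1, was the gene that was at least 2-fold higher, from 9.17 to 20.8 CPM, followed by the corepressor TRIM28, from 13.1 to 24.5 CPM.

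In LNCaP–ENZ168 over VCaP–ENZ48, 41 of these genes were tested, 22 were at least 2-fold higher and 0 lower, with a median log2 ratio of 1.08. Over all genes tested in that pair, 35.5% were at least 2-fold higher and the median was 0.66. With TMM factors that share was 17.3%, but the count of 22 rests on CPM scaling and is not comparable with it. The largest ratio was that of KDM6A, an H3K27 demethylase that acts against PRC2, at 234.7 CPM (222.9 to 247) in LNCaP–ENZ168 and 12.03 CPM (10.3 to 14.0) in VCaP–ENZ48. The related demethylase KDM6B was at 28.7 and 3.29 CPM. The lowest ratios were those of TDG, which removes oxidised methylcytosine, at 61.6 and 89.2 CPM, RBBP4, and GADD45B at 11.3 and 12.3 CPM.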

How the data were processed

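Drop-seq libraries of VCaP parental, VCaP–ENZ48 and LNCaP–ENZ168 were analysed, 1 per group. The authors aligned reads to GRCh38 and made the deposited raw UMI counts per gene and barcode with the Drop-seq tools and STAR, with an expectation of 1000 cells per sample. Genes that a file did not list were set to 0, and 0 columns were left unused. Coordinates come from a later Gencode release on GRCh38 than the one the authors used. Drop-seq counts 3′ ends, so levels were not compared between genes.

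Kept cells had 300 or more genes, 500 or more UMIs and a mitochondrial share of up to 25%. Doublets were not removed. Summed UMIs were scaled to CPM (19515202, 14301287 and 6313283 UMIs in the order above) and ratios taken as log2 of CPM + 1. Intervals are exact at 95%: Poisson for levels, conditional for ratios and Clopper-Pearson for shares. The upper bound for a count of 0 comes from the same Poisson interval. Detection used all cells and cells thinned to 2000 UMIs. Exons shared with other annotated genes made up at most 3.16% of the exon bases of a member.

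The genes, lists and ranges were chosen with earlier results of these data known. Named genes were the 10 members, EZH1, RBBP4, RBBP7, UHRF2, CDCA7 and TET1, the 3 largest rises and 3 largest falls among related genes of 10 CPM or more on average, the 3 genes with the highest correlation to a member where r was at least 0.2, and PCNA, MKI67 and TOP2A as proliferation values (TOP2A was at 1051, 91.9 and 141.9 CPM). Some genes that this rule names are not reported here. The sign and intervals of the library ratios were tested on simulated Poisson counts, and the thinning on simulated cells. The other steps were not tested in this way. Alternatives covered the cell filter, deep barcodes, barcode ending, weighting of cells, scaling, pseudocount, expression minimum, thinning and range bounds. Python 3.11.15 (numpy 2.4.6, pandas 2.3.3, scipy 1.17.1, matplotlib 3.10.9) and R 4.3.3 (Seurat 5.3.0 for the S and G2M lists, edgeR 4.0.16 for TMM factors) were used. Promoter windows are those of RefSeq on GRCh38.p14.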

Additional observations from a re-analysis of the deposited data

How the results depend on the processing

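Of the 260 values of the members' log2 ratios under the alternatives, 215 stayed within the counting interval, 43 moved out of it, and 2 changed sign among those whose own interval left out 0. Both were HELLS in LNCaP–ENZ168 over VCaP–ENZ48, at -0.12 with TMM scaling and -0.084 with median-of-ratios scaling. Of the ratios whose interval held 0, DNMT3A and DNMT3B in that pair and TET2 in the VCaP pair also changed sign under some alternatives. The number of members at least 2-fold higher in that pair was 2 under TMM scaling and 2 under median-of-ratios scaling. The share of all genes at least 2-fold lower in the VCaP pair was 11.3% and in the LNCaP–ENZ168 pair 16.8% with median-of-ratios scaling, and 6.36% and 18.2% were at least 2-fold higher. The number of members at least 2-fold lower in the VCaP pair lay between 3 and 5 under all alternatives run. In the lowest range, HELLS in VCaP–ENZ48 over VCaP parental was -0.67 with quartile ranges and -1.81 when ranges came from G2M genes alone, and the cause was not tested.

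No paired analysis was possible because every condition was sampled by a single library, and no replicate was left out for that reason. Cells vary more than counting error allows for, so the intervals are too narrow as statements on the conditions, and genes such as DNMT3B and UHRF1, with under 50 UMIs in both ENZ libraries, can show large differences only.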
